A study of Homo sapiens with 8 samples.

Results

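Enzymes that cut the extracellular matrix or shed cell surface proteins, and the inhibitors that hold such enzymes back, were followed in H9 human embryonic stem cells with and without the heparan sulfate polymerase gene EXT1. Members were chosen by symbol alone: every listed gene whose symbol is ADAM, ADAMTS, ADAMTSL, MMP, TIMP or a SERPIN clade letter followed by a number. The rule took 53 of the 15811 listed genes: 9 ADAM, 17 ADAMTS, 2 ADAMTS-like, 9 MMP, 4 TIMP and 12 SERPIN genes. Total RNA libraries were made from H9, an established cell line derived from a human embryo, in 2 groups of 4. WT libraries came from unmodified H9 cells and EXT1-/- libraries from the knockout line. All 8 were collected after 28 h in RPMI-1640 medium with 6 µM CHIR-99021, an inhibitor of GSK3 that activates β-catenin and starts mesendoderm differentiation. No uninduced library was analysed here, so a difference between the genotypes that existed before induction cannot be told apart from a difference in the response to CHIR-99021. The comparison asks how the members' transcripts in induced EXT1-/- cells differ from those in induced WT cells.

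ADAM and MMP proteins are zinc-dependent proteases; ADAMs mainly shed the outer parts of membrane proteins, and MMPs mainly cleave matrix components such as collagens. ADAMTS proteins are secreted relatives that bind the matrix, where some cut the large proteoglycans (hyalectans) and others trim procollagen, and ADAMTS-like proteins lack the protease domain. TIMPs are the tissue inhibitors of metalloproteases, whereas most serpins are suicide inhibitors of serine proteases, and several of them bind heparin or heparan sulfate, which speeds their reaction with the target protease.

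The values are normalised read counts, which summed to between 37737058 and 40017763 per library, and 1 CPM corresponds to 38.9 of them. Values of 4 libraries are given in replicate order throughout. EXT1 had 1776, 1499, 1464 and 1508 normalised counts in WT and 890, 894, 915 and 980 in EXT1-/-, a log2 difference of -0.76 ± 0.07 (SE; limma, adjusted p = 9.20e-05). The transcript was lower but still present in every EXT1-/- library. By the mitochondrially encoded share of their counts the libraries formed 2 sets, for which the labels give no name: the share was 5.30 to 5.43% in 5 libraries (the low set) and 9.18 to 10.7% in the other 3 (the high set: WT replicate 1 and EXT1-/- replicates 1 and 4). Nothing in the labels ties replicates to separate cultures, so the p-values rest on a spread between libraries that may be technical, and the genotype is represented by 1 knockout line. In bulk RNA, fewer cells of a type and less RNA per cell cannot be told apart.

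In the EXT1-/- libraries 11 members were higher and 19 lower, and 23 did not pass the threshold (limma on log2(normalised count + 1), Benjamini-Hochberg adjusted p under 0.05 over all 15811 genes). The called share was 56.6% of members, beside 32.0% of all genes (15.2% higher and 16.8% lower). The median log2 difference was -0.21 over the 53 members and 0.01 over all genes. The groups did not overlap in 33 members, 13 higher and 20 lower, where 33.5% of all genes had groups without overlap. In 29 of the 30 called members the two-sided exact permutation test over the 70 divisions of the 8 libraries gave p = 0.0286, the smallest it can give. The test gives that value whenever the groups do not overlap, so it restates the overlap and adds no separate support. Within the low set alone 15 members were higher and 24 lower (45.0% of all genes called), and with the library set as a term 16 were higher and 25 lower (51.8% of all genes called). Of the 30 called members, 29 were also called within the low set in the same direction (MMP24 was not), and all 30 had the same sign in both sets. Both sets are parts of the 8 libraries that gave the calls, so this agreement is not an independent check. A significance mark is carried by 27 members in the authors' deposited table, 11 up and 16 down, where 26.2% of all genes do, and 26 of these are among the 30.

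**Figure D1:**
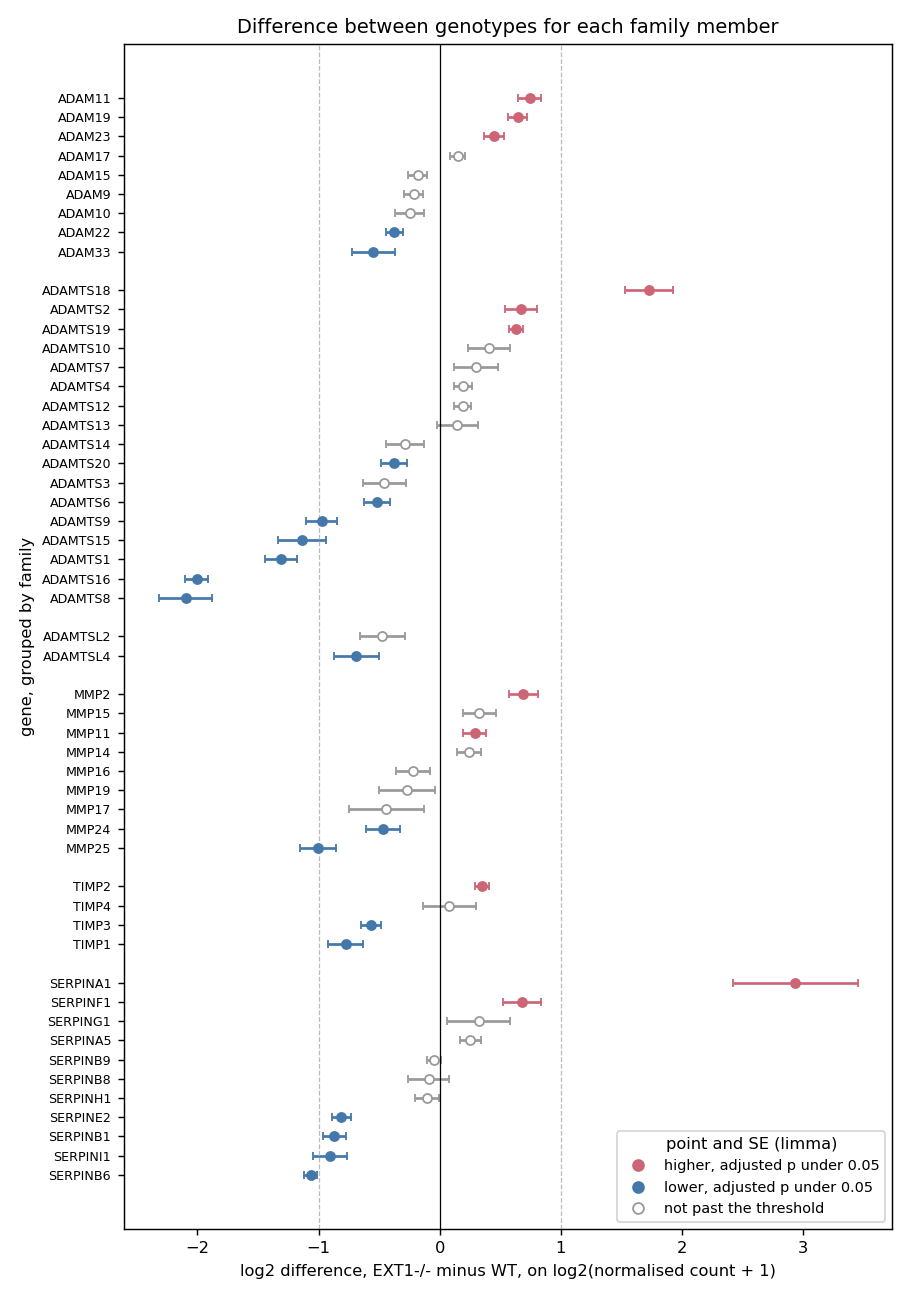
Log2 difference (EXT1-/- minus WT, on the log2(normalised count + 1) scale) of 52 of the 53 members, grouped by family; points are limma estimates over 4 WT and 4 EXT1-/- libraries and bars are standard errors. Filled red points are the 11 higher and filled blue points the 18 lower members shown; the dashed lines mark a 2-fold difference, which ADAMTS8, ADAMTS16, ADAMTS1, ADAMTS15, SERPINB6 and MMP25 passed downwards and SERPINA1 and ADAMTS18 upwards.

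A difference of at least 2-fold was called for 9 members, 2 higher and 7 lower, where 7.02% of all genes were called at that size (4.28% lower). The table lists genes only down to about 1 CPM in their second-highest library, and 3 members had a mean under 1 CPM in WT (ADAMTS18, SERPINA1 and MMP19) and 6 in EXT1-/-, among them ADAMTS8, ADAMTS15, ADAM33, ADAMTS14 and MMP19. A low gene that entered through 1 group had to differ, so the counts above do not describe these families as a whole. Of 106 genes written down for the role groups, 53 were listed; the others were not analysed here. When 5 CPM in 4 or more libraries was required, 36 members were left, 19 of them called (7 higher and 12 lower), where 31.1% of all genes left were called (15.7% higher and 15.4% lower).

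**Figure D2:**
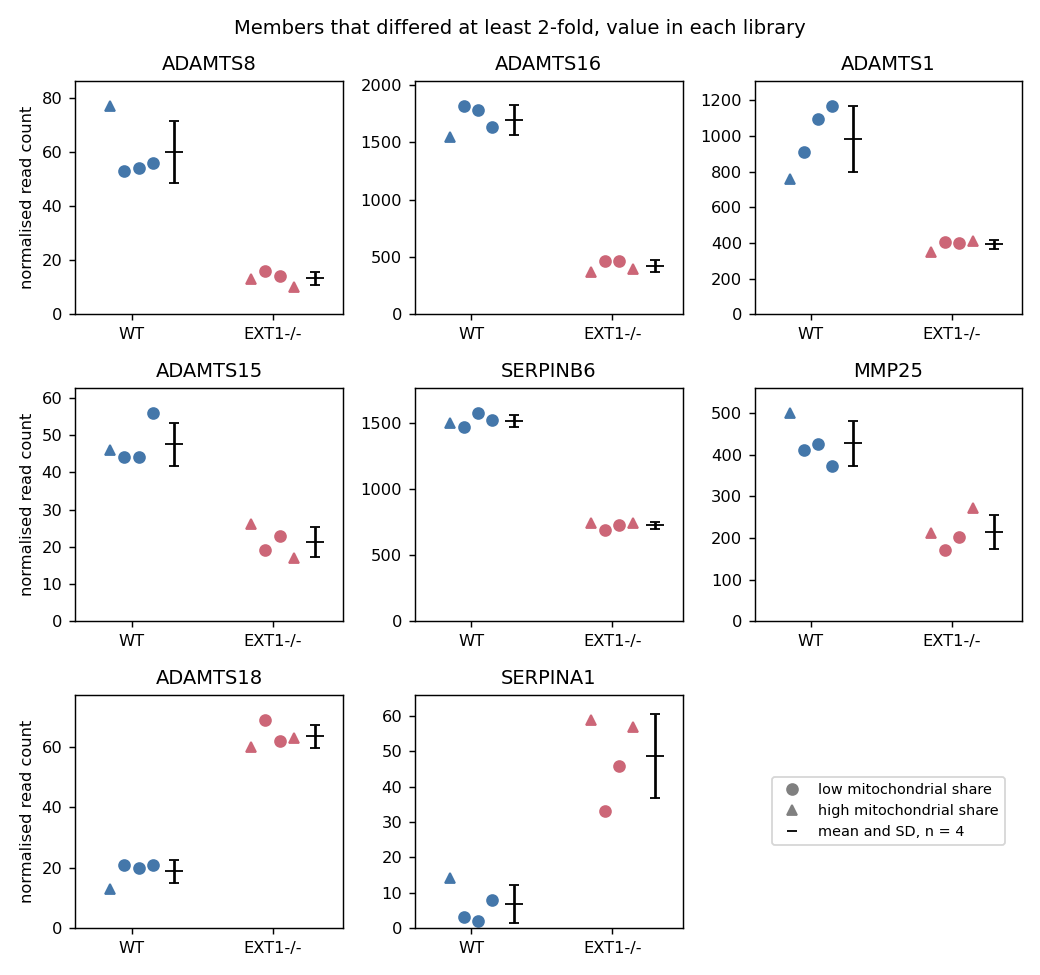
Normalised read count in each library of 8 of the 9 members that differed at least 2-fold; circles are libraries of the low mitochondrial set, triangles those of the high set, and the black marks give the mean and SD (n = 4). The groups do not overlap in any of the 8 panels, and the axes all start at 0.

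The hyalectan-cleaving ADAMTS genes, whose products cut versican and related proteoglycans, gave 5 lower members of 6 measured and none higher, and ADAMTS4 did not pass (16.8% of all genes were called lower). The median log2 difference was -1.06, beside 0.01 for all genes. ADAMTS8 and ADAMTS15 were under 1 CPM in EXT1-/- and entered the table through WT. When 5 CPM in 4 or more libraries was required, 3 of the 6 were left, of which ADAMTS1 and ADAMTS20 were called lower. ADAMTS1 (ENSG00000154734, chr21:26835747-26845409 on the minus strand; GENCODE 29 on GRCh38, as for all gene positions given here) had 760, 912, 1097 and 1168 normalised counts in WT and 352, 404, 399 and 412 in EXT1-/-. Every EXT1-/- library lay below every WT library. The means were 984 ± 184 and 392 ± 27.0 (SD, n = 4 each), a log2 difference of -1.31 ± 0.13 (SE; limma adjusted p = 1.15e-04).

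ADAMTS8 and ADAMTS15 are neighbours on chromosome 11 (chr11:130404925-130428993, minus strand, and chr11:130448974-130476641, plus strand), 20.0 kb apart, and both were lower. ADAMTS8 had 77, 53, 54 and 56 normalised counts in WT and 13, 16, 14 and 10 in EXT1-/-, a log2 difference of -2.10 ± 0.22 (SE; limma adjusted p = 1.47e-04). ADAMTS15 had 46, 44, 44 and 56 in WT and 26, 19, 23 and 17 in EXT1-/-, a log2 difference of -1.13 ± 0.20 (SE; limma adjusted p = 0.00262). Neither gene's groups overlapped, and both genes were low, with a WT mean of 1.54 CPM for ADAMTS8 and 1.22 CPM for ADAMTS15.

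ADAMTS9, a versican-cleaving protease that also acts in early development, had 177, 159, 174 and 131 normalised counts in WT and 75, 91, 81 and 76 in EXT1-/-. All 4 EXT1-/- values were below the lowest WT value, and the log2 difference was -0.97 ± 0.13 (SE; limma adjusted p = 4.98e-04). ADAMTS20, its closest relative in the family, was lower by a smaller amount, with 377 to 401 in WT and 251 to 340 in EXT1-/- (log2 difference -0.37, limma adjusted p = 0.0277); leaving out single libraries moved that adjusted p up to 0.0727. ADAMTS4, known as an aggrecanase, had 244, 242, 216 and 218 in WT and 261, 276, 261 and 253 in EXT1-/-, with no overlap but an adjusted p of 0.0841 (limma). Of the substrates fixed beside these genes, versican (VCAN) was higher, with normalised count means of 45265 ± 2469 in WT and 67723 ± 2090 in EXT1-/- (SD, n = 4 each; log2 difference 0.58, limma adjusted p = 7.65e-05).

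ADAMTS16 (ENSG00000145536, chr5:5140330-5320304, plus strand) and ADAMTS19 (ENSG00000145808, chr5:129460265-129738683, plus strand) had the highest levels per length in WT among the 8 remaining ADAMTS genes, of which 2 were higher, 2 lower and 4 did not pass, and they differed in opposite directions. ADAMTS16 had 1548, 1817, 1785 and 1631 normalised counts in WT and 365, 463, 465 and 397 in EXT1-/-, so that the highest EXT1-/- library was far below the lowest WT library. Its means were 1695 ± 127 and 422.5 ± 49.7 (SD, n = 4 each), a log2 difference of -2.01 ± 0.10 (SE; limma adjusted p = 1.95e-06). ADAMTS19 had 6873, 7144, 7277 and 7198 in WT and 10017, 11536, 11374 and 11305 in EXT1-/-. Its log2 difference was 0.63 ± 0.06 (SE; limma adjusted p = 6.11e-05), and the groups did not overlap. Scaled to exon length, ADAMTS19 was at 33.9 CPM per kilobase in WT and 52.6 in EXT1-/-, and ADAMTS16 at 7.43 and 1.85.

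ADAMTS18 (ENSG00000140873, chr16:77247813-77435114, minus strand), a close relative of ADAMTS16 by sequence, was higher: 13, 21, 20 and 21 normalised counts in WT and 60, 69, 62 and 63 in EXT1-/-. The log2 difference was 1.73 ± 0.20 (SE; limma adjusted p = 2.41e-04), and its WT mean of 0.482 CPM was under 1 CPM. ADAMTS6, which acts on microfibril proteins, was lower (log2 difference -0.52, limma adjusted p = 0.00603). Among the other members of this group ADAMTS7, ADAMTS10, ADAMTS12 and ADAMTS13 did not pass, with log2 differences of 0.30, 0.41, 0.19 and 0.14. ADAMTS7 shares 11.1% of the 75-base words of its protein-coding transcripts with other genes, most of all its pseudogene ADAMTS7P3, so its count is uncertain.

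Of the procollagen-cleaving genes, ADAMTS2, the main N-proteinase of fibrillar collagen, was higher, with 92, 83, 115 and 91 normalised counts in WT and 173, 141, 137 and 157 in EXT1-/- (log2 difference 0.67 ± 0.13 SE, limma adjusted p = 0.00449). ADAMTS3 had 142, 214, 217 and 213 in WT and 132, 162, 166 and 111 in EXT1-/-. WT replicate 1 alone overlapped the EXT1-/- range, and the adjusted p was 0.0854 (limma); it was 0.0123 within the low set, with a log2 difference of -0.39. ADAMTS14 had 42 to 52 in WT and 32 to 41 in EXT1-/- (log2 difference -0.29, limma adjusted p = 0.20). So 1 of these 3 genes was called, a share of 33.3% that is close to the 32.0% of all genes. The ADAMTS-like genes both had lower means: ADAMTSL4, a fibrillin-binding protein, was called (log2 difference -0.69, limma adjusted p = 0.0216, up to 0.0629 without single libraries), and ADAMTSL2 was not (-0.47, limma adjusted p = 0.0834), although it was called within the low set (-0.57, limma adjusted p = 0.0343).

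MMP2, the secreted gelatinase that TIMP2 helps to activate at the cell surface, was the most abundant MMP and was higher. MMP2 (ENSG00000087245, chr16:55389700-55506691, plus strand) had 6364, 5131, 5023 and 4999 normalised counts in WT and 9145, 7620, 7700 and 10366 in EXT1-/-. The lowest EXT1-/- value lay above the highest WT value, and within each genotype the high-set libraries were the higher ones. Means were 5379 ± 659 and 8708 ± 1309 (SD, n = 4 each), a log2 difference of 0.69 ± 0.12 (SE; limma adjusted p = 0.00240), and 0.60 within the low set.

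MMP11, a secreted protease that furin activates inside the cell, had 443, 396, 477 and 389 normalised counts in WT and 459, 522, 572 and 530 in EXT1-/-. Its groups overlapped, and its log2 difference of 0.29 had a limma adjusted p of 0.0456, which rose above the threshold under several settings, up to 0.126 without WT replicate 2. MMP19 had 31 to 48 in WT and 24 to 38 in EXT1-/- (log2 difference -0.27, limma adjusted p = 0.41).

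Of the 6 membrane-bound MMPs, 2 were called lower and none higher, a called share of 33.3% that is close to the 32.0% of all genes. MMP25, which is anchored by a lipid, had 501, 412, 425 and 373 normalised counts in WT and 212, 172, 202 and 272 in EXT1-/-, a log2 difference of -1.004 ± 0.15 (SE; limma adjusted p = 9.54e-04), just past the 2-fold line. The gene lies at chr16:3046681-3060726 on the plus strand, and 35.2% of its exonic bases overlap a gene on the opposite strand, MMP25-AS1. The kit keeps strand, but whether the counting used it is not given in the sources used here, so MMP25 is uncertain. The same holds to a lesser degree for MMP19 (17.4% of exonic bases), ADAMTSL4 (14.4%), ADAM17 (13.6%) and TIMP4 (10.3%). MMP24 was lower by 0.47 on the log2 scale (limma adjusted p = 0.0342), its adjusted p was 0.0979 within the low set, it crossed the threshold without 7 of the 8 libraries in turn, and 21.8% of its exonic bases overlap an opposite gene.

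MMP14, the membrane protease that activates the MMP2 proenzyme, had 2379, 2199, 2188 and 2228 normalised counts in WT and 2758, 2347, 2417 and 3197 in EXT1-/-. The highest WT library, replicate 1, overlapped the EXT1-/- range, and the log2 difference of 0.24 ± 0.10 (SE) had a limma adjusted p of 0.0876. Within the low set it was 0.11 with an adjusted p of 0.0454. MMP15 had 1686, 1473, 1544 and 1292 in WT and 1968, 1610, 1642 and 2368 in EXT1-/- (log2 difference 0.33, limma adjusted p = 0.0928); it is the 1 member marked in the authors' deposited table and not called here. MMP16 and MMP17 had log2 differences of -0.22 and -0.44 and did not pass over all 8 libraries. MMP17 was lower within the low set (log2 difference -0.75, limma adjusted p = 0.0370) and with the library set as a term (-0.63, limma adjusted p = 0.0207). It had 188, 129, 160 and 93 in WT and 117, 67, 81 and 166 in EXT1-/-, and the high-set libraries of EXT1-/- were higher than its low-set libraries by 0.91 on the log2 scale.

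Of the 4 TIMP genes, TIMP1 and TIMP3 were lower, TIMP2 was higher and TIMP4 did not pass (75% called, beside 32.0% of all genes). TIMP1 (ENSG00000102265, chrX:47582313-47586789, plus strand), a secreted inhibitor of most MMPs, had 1618, 1214, 1276 and 1201 normalised counts in WT and 885, 634, 684 and 914 in EXT1-/-. All EXT1-/- libraries were below all WT libraries, although in both genotypes the high-set libraries were higher than the low-set ones. The means were 1327 ± 197 and 779 ± 141 (SD, n = 4 each), a log2 difference of -0.77 ± 0.14 (SE; limma adjusted p = 0.00369), and -0.90 within the low set.

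TIMP3, the family member that binds the matrix and also inhibits ADAM17 and ADAMTS enzymes, had 300, 307, 289 and 336 normalised counts in WT and 217, 197, 192 and 225 in EXT1-/- (log2 difference -0.57 ± 0.08 SE, limma adjusted p = 0.00111). TIMP2, which inhibits MMP2 and also forms a complex with MMP14 and the MMP2 proenzyme, was higher, with 1213, 1167, 1197 and 1116 in WT and 1569, 1524, 1397 and 1500 in EXT1-/- (log2 difference 0.35 ± 0.06 SE, limma adjusted p = 0.00180). Neither gene's groups overlapped. TIMP4 had 57, 36, 47 and 54 in WT and 58, 36, 60 and 52 in EXT1-/-, and its groups overlapped fully (log2 difference 0.08 ± 0.22 SE, limma adjusted p = 0.81).

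To compare levels between genes, normalised counts were scaled to CPM per kilobase of exon and summed over each family. The 9 MMP genes summed to 60.7 ± 5.39 CPM per kilobase in WT and 80.6 ± 11.3 in EXT1-/-, and the 4 TIMP genes to 30.0 ± 3.46 and 21.8 ± 2.67 (SD, n = 4 each). The ratio of the TIMP sum to the MMP sum was 0.512, 0.474, 0.493 and 0.494 in WT and 0.289, 0.270, 0.273 and 0.253 in EXT1-/-. The ratio was lower in every EXT1-/- library than in every WT library, with means of 0.493 ± 0.0153 and 0.271 ± 0.0147 (SD, n = 4 each). MMP2 made up 46.1% of the MMP sum in WT and 56.2% in EXT1-/-, and TIMP1 made up 73.7% and 59.3% of the TIMP sum. Without length scaling the ratio was 0.242 in WT and 0.164 in EXT1-/-. A ratio of transcripts is not a ratio of active proteins.

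**Figure D3:**
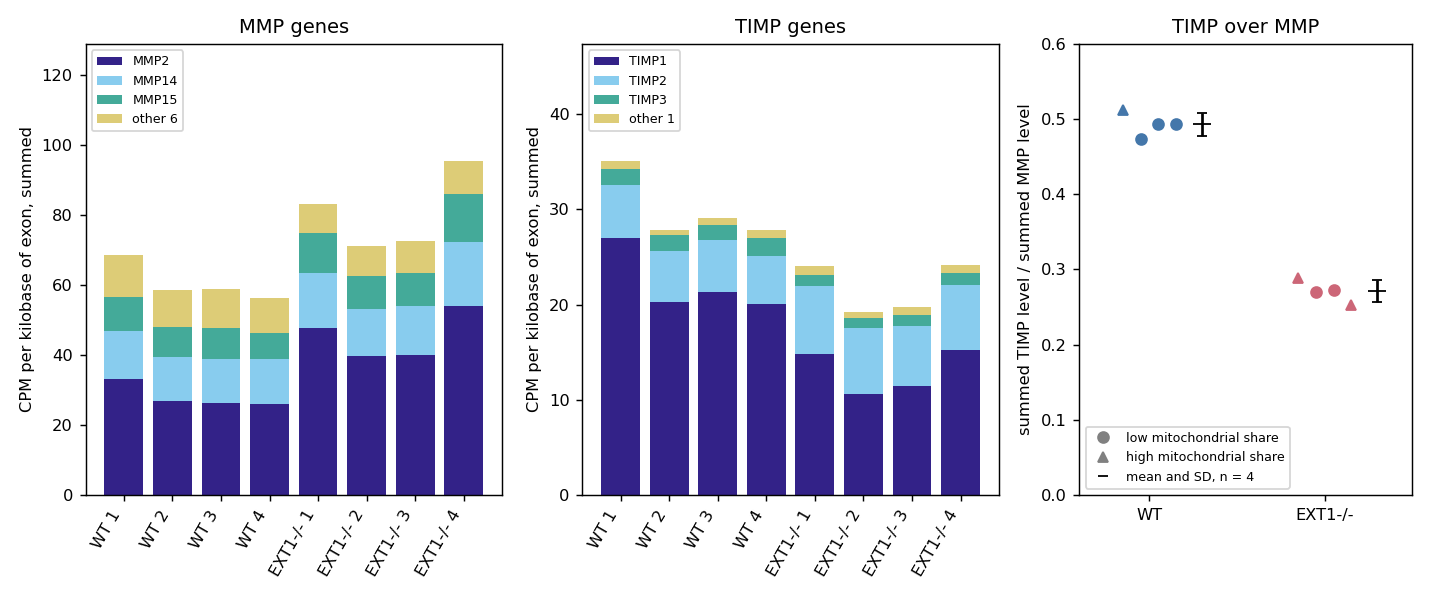
Left and middle, summed level of the MMP and TIMP genes in each library (CPM per kilobase of exon), stacked by gene; right, the ratio of the TIMP to the MMP sum per library, with the mean and SD (n = 4) and triangles for high-set libraries. The WT ratios lie between 0.474 and 0.512 and the EXT1-/- ratios between 0.253 and 0.289.

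Of 8 ADAM genes without a catalytic site only 3 were listed, and all 3 were called, 2 higher and 1 lower (32.0% of all genes were called). ADAM11, which like ADAM22 and ADAM23 acts in adhesion and at synapses, had 226, 215, 211 and 178 normalised counts in WT and 368, 339, 326 and 355 in EXT1-/- (log2 difference 0.74 ± 0.09 SE, limma adjusted p = 3.66e-04). ADAM23 was higher by 0.45 and ADAM22, a receptor for secreted LGI proteins, lower by 0.37 on the log2 scale (limma adjusted p = 0.00306 and 0.00424). None of the 3 had overlapping groups, where 33.5% of all genes had groups without overlap.

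Of the 6 catalytic ADAM genes, 4 did not pass (33.3% called, close to the 32.0% of all genes). ADAM19, a sheddase of neuregulin, was the higher one, with 919, 913, 891 and 1045 normalised counts in WT and 1382, 1439, 1442 and 1627 in EXT1-/- (log2 difference 0.64 ± 0.07 SE, limma adjusted p = 2.59e-04). ADAM33 was lower, with 41 to 46 in WT and 26 to 37 in EXT1-/- (log2 difference -0.55, limma adjusted p = 0.0418), and the adjusted p was up to 0.102 without single libraries. The main sheddases showed small differences: ADAM10, the constitutive sheddase of Notch and cadherins, had 5336, 7020, 6425 and 7022 in WT and 4876, 6044, 6143 and 4698 in EXT1-/- (log2 difference -0.25, limma adjusted p = 0.15).

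ADAM17, the sheddase of TNF and several EGF-family ligands, had 2048, 2211, 2061 and 2310 normalised counts in WT and 2317, 2467, 2490 and 2287 in EXT1-/-. Its groups overlapped in 1 WT library, replicate 4, and the log2 difference was 0.15 ± 0.06 (SE; limma adjusted p = 0.0922). ADAM9 had 1130, 1295, 1204 and 1380 in WT and 1007, 1085, 1177 and 1043 in EXT1-/- (log2 difference -0.21, limma adjusted p = 0.0694), and ADAM15 had 990 to 1134 and 872 to 1019 (log2 difference -0.18, limma adjusted p = 0.0977). With the library set as a term, the adjusted p of ADAM10, ADAM17, ADAM9 and ADAM15 was 0.00571, 0.00613, 0.0221 and 0.0129 (limma). Their log2 differences were then -0.16, 0.17, -0.17 and -0.21, and 51.8% of all genes were called with that term.

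SERPINE2, a thrombin and urokinase inhibitor that binds heparin, was lower from a level of 15.2 CPM per kilobase in WT to 8.69 in EXT1-/-. It had 4801, 5113, 5375 and 5805 normalised counts in WT and 2883, 2882, 2872 and 3380 in EXT1-/-. The groups did not overlap, and the log2 difference was -0.81 ± 0.08 (SE; limma adjusted p = 9.04e-05). SERPINA5, a further heparin-binding serpin, had 201, 179, 202 and 195 in WT and 245, 250, 220 and 214 in EXT1-/-, without overlap (log2 difference 0.26, limma adjusted p = 0.0504).

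SERPINI1, the neural inhibitor neuroserpin, was lower, with 292, 331, 334 and 370 normalised counts in WT and 167, 212, 197 and 138 in EXT1-/- (log2 difference -0.90 ± 0.14 SE, limma adjusted p = 0.00139). SERPINF1, the secreted pigment epithelium-derived factor, which inhibits no protease, was higher, with 755, 561, 594 and 550 in WT and 1232, 767, 896 and 1087 in EXT1-/- (log2 difference 0.68 ± 0.16 SE, limma adjusted p = 0.0110). The SERPINF1 groups came close to each other, with 755 in WT replicate 1 and 767 in EXT1-/- replicate 2. SERPINA1, which encodes the elastase inhibitor α-antitrypsin (chr14:94376747-94390693, minus strand), had 14, 3, 2 and 8 in WT and 59, 33, 46 and 57 in EXT1-/-, a log2 difference of 2.94 ± 0.52 (SE; limma adjusted p = 0.00268) from a WT mean of 0.174 CPM.

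SERPINH1, the collagen chaperone known as a heat-shock protein, and SERPING1, the complement C1 inhibitor, did not pass. SERPINH1 had 10984, 9133, 9453 and 9558 normalised counts in WT and 9972, 8015, 8164 and 10377 in EXT1-/- (log2 difference -0.11, limma adjusted p = 0.47), and -0.21 with an adjusted p of 0.00228 within the low set. SERPING1 had 2589, 1356, 1359 and 1348 in WT and 2559, 1507, 1613 and 2523 in EXT1-/- (log2 difference 0.32, limma adjusted p = 0.38). Its 3 high-set libraries lay between 2523 and 2589 and its 5 low-set libraries between 1348 and 1613. Within the low set the genotypes did not overlap, and SERPING1 was called higher in EXT1-/- (log2 difference 0.20, limma adjusted p = 0.0113). Within EXT1-/- the high-set libraries differed from the low-set ones by at least 0.3 on the log2 scale in 22 of the 53 members, where 34.5% of all genes did, and in 14 members by more than the genotypes did, where 48.4% of all genes did.

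**Figure D4:**
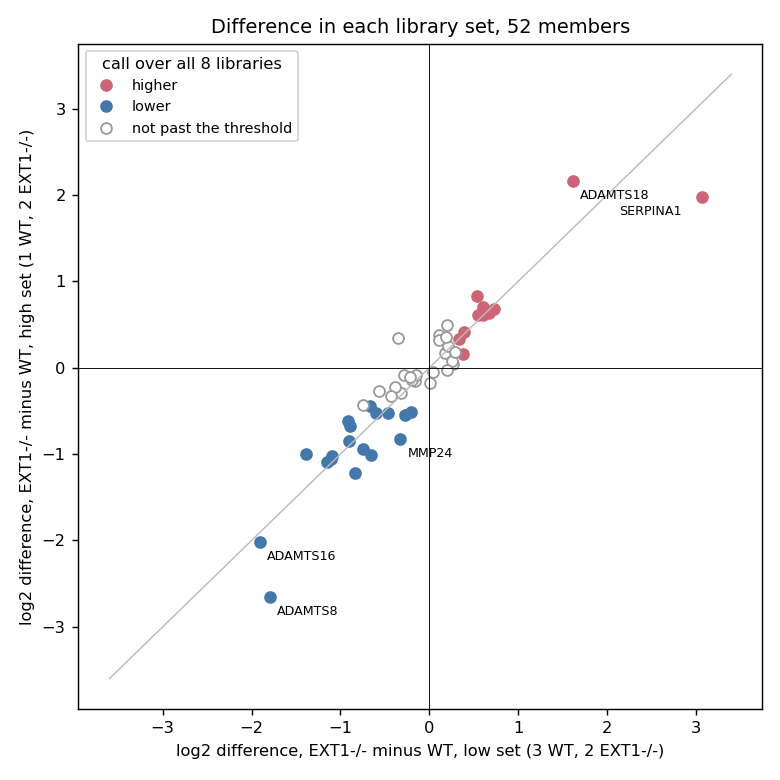
Log2 difference (EXT1-/- minus WT) of 52 of the 53 members within the low mitochondrial set (x axis, 3 WT and 2 EXT1-/- libraries) and within the high set (y axis, 1 WT and 2 EXT1-/- libraries); the grey line marks equal values and colours give the call over all 8 libraries. All 29 called members shown lie in the lower left or upper right quadrant, on the same side of 0 in both sets. The sets are parts of the libraries on which the calls were made.

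The clade B serpins, which act inside cells, gave 2 lower members and 2 that did not pass (16.8% of all genes were called lower). SERPINB1, SERPINB9 and SERPINB6 lie in that order on the minus strand of chromosome 6 (chr6:2832332-2842006, chr6:2887266-2903280 and chr6:2948159-2972165), with gaps of 45.3 and 44.9 kb, and only the outer genes were called. SERPINB1, an inhibitor of neutrophil elastase, had 902, 1166, 1181 and 1056 normalised counts in WT and 554, 600, 616 and 574 in EXT1-/- (log2 difference -0.87 ± 0.09 SE, limma adjusted p = 1.54e-04). SERPINB6, which inhibits trypsin-like proteases and cathepsin G, had 1502, 1470, 1581 and 1523 in WT and 741, 690, 732 and 741 in EXT1-/- (log2 difference -1.06 ± 0.05 SE, limma adjusted p = 2.45e-06). Neither gene's groups overlapped.

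SERPINB9, the inhibitor of granzyme B, lies between them and had 21223, 19379, 18168 and 19980 normalised counts in WT and 19264, 19666, 18937 and 18395 in EXT1-/-. Its groups overlapped, with a log2 difference of -0.04 ± 0.06 (SE; limma adjusted p = 0.60). It was the member with the highest level per length, 123 CPM per kilobase in WT and 119 in EXT1-/-, ahead of SERPINH1 in WT and of ADAMTS19 in EXT1-/- (52.6). SERPINB8, on chromosome 18, had 52 to 69 in WT and 45 to 69 in EXT1-/- (log2 difference -0.09, limma adjusted p = 0.72).

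The 250 bases before the start of 1 RefSeq transcript of each of these chromosome 6 neighbours are shown, since the outer genes were called and the middle one was not; they are written 5′ to 3′ on the minus strand from RefSeq on GRCh38.p14. Capitals mark an ETS-type match (CCGGAAG on either strand) or a TATA box match (TATAAA on either strand).
SERPINB1 (chr6:2841864-2842113): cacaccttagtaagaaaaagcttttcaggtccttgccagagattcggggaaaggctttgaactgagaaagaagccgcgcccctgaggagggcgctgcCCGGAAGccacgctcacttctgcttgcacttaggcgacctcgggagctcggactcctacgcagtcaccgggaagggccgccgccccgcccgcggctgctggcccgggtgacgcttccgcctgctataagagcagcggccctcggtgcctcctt
SERPINB9 (chr6:2903310-2903559): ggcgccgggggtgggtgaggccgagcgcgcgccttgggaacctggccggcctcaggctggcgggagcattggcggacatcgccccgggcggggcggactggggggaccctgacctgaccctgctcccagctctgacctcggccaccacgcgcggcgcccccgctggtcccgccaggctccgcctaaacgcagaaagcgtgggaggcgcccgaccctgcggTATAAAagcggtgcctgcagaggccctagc
SERPINB6 (chr6:2971568-2971817): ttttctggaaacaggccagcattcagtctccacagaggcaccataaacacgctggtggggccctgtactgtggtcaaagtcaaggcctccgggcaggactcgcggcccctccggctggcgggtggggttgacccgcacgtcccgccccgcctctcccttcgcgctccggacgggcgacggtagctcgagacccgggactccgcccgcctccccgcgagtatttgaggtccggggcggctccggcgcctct
In SERPINB1 the ETS-type match began 153 bases before the start, in SERPINB9 the TATA box match began 30 bases before it, and the SERPINB6 stretch held neither. Of the other 3 annotated SERPINB6 windows, those at chr6:2971227-2971526 and chr6:2971240-2971539 overlap and hold the same ETS-type match, at positions -13 and 1 from their starts. That at chr6:2962081-2962380 holds the letters TATAAA from position -1, across its start and not before it as in SERPINB9. A promoter window (250 bases before to 50 after a start) was found for 35 of the 53 members and for 10864 genes of the table, and a gene with several starts counted once if any of its windows held a motif. CCGGAAG was present in 14.3% of the 35 members and 21.5% of the 10864 genes, TATAAA in 14.3% and 8.29%, and the AP-1 letters TGANTCA in 5.71% and 6.82%. The GC box GGGCGG was present in 88.6% and 76.8%, and the TCF/LEF letters ATCAAAG in 0 of the 35 members and 2.15% of the genes. The searches covered both strands, and a match says only that the letters are there. The median GC content was 69.7% over the members' 42 windows and 64.7% over the 15958 windows of listed genes.

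The plasminogen system, which SERPINE2 helps to restrain, moved in both directions: of 8 other genes measured, 3 were higher and 2 lower (62.5% called). The called shares of this and the following lists stand beside 32.0% of all genes. ANXA2, a cell surface receptor that gathers plasminogen and its activator, had 6833, 6761, 6816 and 7256 normalised counts in WT and 13268, 12136, 12654 and 13577 in EXT1-/- (log2 difference 0.90, limma adjusted p = 5.77e-06). The tissue activator PLAT was higher by 0.85 and the urokinase activator PLAU lower by 0.77 on the log2 scale (limma adjusted p = 9.24e-04 and 0.00343). KLKB1, prekallikrein, was lower by 0.57 (limma adjusted p = 4.67e-04).

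Among 14 activators and partners of the metalloproteases, 4 were higher and 1 lower (35.7% called, close to the share of all genes). TSPAN5 and TSPAN14, tetraspanins that escort ADAM10 to the surface, differed by 0.77 and 0.38 on the log2 scale, the convertase PCSK6 by 0.69 and PCSK7 by 0.34. RHBDF1, a pseudoprotease that escorts ADAM17, was lower, at 923, 866, 969 and 824 normalised counts in WT and 431, 412, 418 and 622 in EXT1-/- (log2 difference -0.95, limma adjusted p = 8.21e-04). Of 5 EGF-family ligands that ADAMs release 80.0% were called: NRG1 was higher (log2 difference 1.23, limma adjusted p = 2.20e-05) and so was HBEGF (0.48, limma adjusted p = 0.0121), whereas TGFA (-1.33, limma adjusted p = 4.75e-05) and EGF (-0.92, limma adjusted p = 0.0203) were lower.

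Of 7 other metalloprotease inhibitors and modulators, 2 were higher and 3 lower (71.4% called). Papilin (PAPLN), a matrix protein related to ADAMTS proteins, differed by 1.43 and the proteoglycan SPOCK1 by 0.95 on the log2 scale, and TFPI2, a secreted Kunitz inhibitor, fell by 1.65, A2ML1 by 1.17 and SPOCK2 by 1.63. Of 9 other secreted matrix proteases and related enzymes 2 were higher and 4 lower (66.7% called), the latter including PAPPA (log2 difference -1.21), HTRA3 (-1.02) and HTRA1 (-0.61). The 2 higher ones were PRSS23 (0.53) and BMP1 (0.43). HPSE, the heparanase that degrades heparan sulfate, had 45, 47, 55 and 46 normalised counts in WT and 32, 33, 33 and 19 in EXT1-/- (log2 difference -0.73, limma adjusted p = 0.0303). SPOCK2, PAPPA and HPSE were under 1 CPM in EXT1-/- and entered through WT. HPSE, BMP1, TSPAN14, SPOCK2, BCAN and CTSV were named after their values were seen.

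Membrane serine proteases and their Kunitz inhibitors were lower in 5 of 6 measured genes and higher in none (83.3% called): ST14 (matriptase) differed by -1.02, HPN (hepsin) by -0.98, PRSS8 (prostasin) by -0.55 and their inhibitor SPINT1 by -0.52 on the log2 scale (limma adjusted p from 9.93e-05 to 7.02e-04). Of 10 cathepsins 4 were lower and none higher over all 8 libraries (40% called), while CTSV was called higher within the low set (log2 difference 0.29, limma adjusted p = 5.79e-04), where 6 were lower. CTSK, a collagen-degrading cathepsin, was at 300, 304, 295 and 305 in WT and 89, 100, 89 and 88 in EXT1-/- (log2 difference -1.71, limma adjusted p = 1.66e-06). Of 7 cystatins and other small inhibitors 1 was higher, SPINK5 (0.38), and 2 were lower, WFDC2 (-1.13) and SPINK1 (-0.82), with 42.9% called. Of the 6 hyalectans and fibrillins (83.3% called) 4 were higher, VCAN (above), NCAN (1.49), FBN3 (0.30) and BCAN (0.52), and FBN2 was lower (-0.72).

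Markers of several cell types moved with genotype, and their part in the members' differences was not tested. Beside all counts in this paragraph, 15.2% of all genes were called higher and 16.8% lower. Of 10 neuroectoderm and neural crest markers 6 were measured and all 6 were higher (summed normalised count 621 to 794 per library in WT, 7699 to 17203 in EXT1-/-). PAX6, SIX3, LHX2 and SOX10 were not among the listed genes. POU3F2, OTX1 and TFAP2A, the last also an amnion and trophectoderm marker, were under 1 CPM in WT and entered through EXT1-/-. Of 9 primitive streak and mesendoderm markers 5 were lower and 1 higher (38446 to 42647 in WT, 19931 to 36268 in EXT1-/-), and of 10 pluripotency markers 6 were lower and 2 higher (193762 to 203493 and 138596 to 153604). The higher streak marker was SP5, at 15484 in EXT1-/- replicate 4 and 6539 to 7274 in the other EXT1-/- libraries. The mesoderm markers summed to 11144 to 12048 in WT and 1871 to 2278 in EXT1-/- (2 higher and 2 lower of 6), the definitive endoderm markers to 549 to 618 and 1425 to 2053 (3 higher and 2 lower of 6), and the amnion and trophectoderm markers to 3613 to 3881 and 4050 to 6781 (3 higher and 1 lower of 6). A sum follows its most abundant genes and does not describe a whole list. KDR alone had 9967 to 10796 in WT and 1458 to 1793 in EXT1-/-. Of the definitive endoderm markers CXCR4, GATA4 and PRDM1 were higher, and FOXA2 and HHEX lower. SP5 and KDR were named after their values were seen. Parietal and visceral endoderm markers gave 18128 to 19298 and 16016 to 16707 (2 higher and 1 lower of 4), and TEK, the 1 endothelial and blood marker listed, gave 567 to 624 and 1500 to 1618. The 2 higher mesoderm markers, HAND1 (also on the amnion list) and TBX3, were under 1 CPM in WT and entered through EXT1-/-. The same holds for PRDM1 among the endoderm markers and CUBN among the parietal and visceral ones. Among the lower markers FOXA2, HHEX and GABRP were under 1 CPM in EXT1-/- and entered through WT. No measured marker was at 0 in all libraries, and the defining markers SOX17, MESP1 and PAX6 were not in the table.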

How the data were processed

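Total RNA of 4 WT and 4 EXT1-/- libraries was sequenced with a stranded total RNA kit, per the labels' protocols. The submitters' processing notes name STAR, RSEM, edgeR and GRCh38.p10. The authors deposited 1 table with a normalised read count per library (a signal, not raw counts, so no count model was run), and, for each gene, their log2 fold change and log2 CPM, with the test's score, p-value and FDR. Here log2(value + 1) was tested with limma 3.58.1 (intensity trend, genotype only; R 4.3.3), with Benjamini-Hochberg adjustment over 15811 genes and a threshold of 0.05. Fold changes of low genes can be understated or overstated on this scale. The log2 difference was -2.10 for ADAMTS8 (authors' value -2.19) and 2.94 for SERPINA1 (authors' value 2.79). The fit was first tested on simulated data. Levels per kilobase use all exonic bases of GENCODE 29, to which 15777 genes were matched, and RefSeq windows were matched by symbol; Python 3.11.15 was used. TBXT is listed as T. The values of 1 member are not reported here; it is included in the counts of members. Values are given per library for members called at least 2-fold with 1 CPM in the higher group, for a fixed set of further members, and for up to 4 genes per list, taken by lowest adjusted p. ADAM11, ADAMTS2, ADAMTS19, MMP11 and SERPINB1, called under 2-fold and outside that set, are given per library as well. So are some members that did not pass. Members and lists were chosen with earlier results of these data known. Libraries of a group differed by more than sampling noise (chi-square over its degrees of freedom 4.42 to 10.7 within a library set, 72.2 to 119 between sets), so none was counted as a repeat. Alternatives were other pseudocounts, filters, scalings and tests, a replicate block, the library set, and each library left out.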

Additional observations from a re-analysis of the deposited data

Results flagged for a closer look

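In 9 of 106 groups of 4 libraries, 1 library stood far from the other 3 (Dixon's test on the gap over the range, 95% critical value); chance gives about 1 in 20 groups. WT replicate 1 was the library in 6 of them: it was high for SERPING1 (2589 normalised counts, the others 1348 to 1359), MMP2 (6364, the others 4999 to 5131), ADAMTS8 (77, the others 53 to 56) and EXT1 (1776, the others 1464 to 1508), and low for ADAMTS3 (142, the others 213 to 217) and ADAMTS18 (13, the others 20 to 21). It is the WT library of the high mitochondrial set. WT replicate 4 was high for ADAMTS15 (56, the others 44 to 46). In EXT1-/-, replicate 1 was low for ADAMTS19 (10017, the others 11305 to 11536) and replicate 4 high for SERPINE2 (3380, the others 2872 to 2883).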

How the results depend on the processing

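Of the 30 called members, 25 kept their call and direction under every alternative in which they were tested, and none of the 30 reversed. The filter of 5 CPM in 4 or more libraries removed 10 of the 30, which were judged by the other alternatives only. Calls were lost without single libraries for ADAM33 (all but EXT1-/- replicate 4), MMP24 (all but WT replicate 4), ADAMTS20 (EXT1-/- replicates 1 and 4, WT replicates 2, 3 and 4), MMP11 (EXT1-/- replicates 2, 3 and 4, WT replicates 2 and 4) and ADAMTSL4 (EXT1-/- replicate 2, WT replicate 2). Of the 23 others, 14 were called under at least 1 alternative. Without single libraries 25 to 32 members were called (10 to 12 higher and 15 to 20 lower), and 3721 to 6041 of all genes, and the EXT1 difference was -0.79 to -0.70. With the library set as a term 8195 genes were called in place of 5063.

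When 5 CPM in 4 or more libraries was required, 19 members were called (7 higher and 12 lower): 10 of the 30 were no longer tested, and MMP11 lost its call. The counts called were 1 catalytic ADAM, 2 hyalectan-cleaving ADAMTS, 2 other ADAMTS, 0 ADAMTS-like, 1 secreted MMP, 0 clade A and 1 heparin-binding serpin gene, and in the lists 3 for plasminogen activation, 3 other metalloprotease inhibitors, 2 other secreted proteases and 2 EGF-family ligands. With the set term 6 catalytic ADAM, 2 procollagen-cleaving ADAMTS, 5 membrane MMP, 2 clade A serpin and 7 cathepsin genes were called, and in the low set alone 5 catalytic ADAM, 2 procollagen-cleaving ADAMTS, 2 ADAMTS-like, 7 cathepsin and 5 cystatin-list genes. Of the secreted MMPs 1 was called with equal totals, upper quartile factors, the replicate block or no intensity trend. Of the clade A serpins 2 were called with median-of-ratios factors, a pseudocount of 0.5 or no intensity trend. Without single libraries the counts were 0 to 2 (ADAMTS-like), 1 to 3 (catalytic ADAM), 1 to 2 (clade A serpin, membrane MMP, procollagen-cleaving ADAMTS and secreted MMP), 2 to 3 (heparin-binding serpin), 4 to 5 (other and hyalectan-cleaving ADAMTS), 3 to 5 (EGF-family ligands; hyalectans and fibrillins) and 2 to 4 (cystatin list).

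The TIMP over MMP difference of -0.222 (EXT1-/- minus WT) was -0.228 to -0.216 without single libraries and -0.0773 without length scaling, an alternative chosen after seeing the data. Reversed values, none of them called, were 0.0103 for SERPINB9 in the low set and those of 2 genes without single libraries, SERPINB8 (-0.177 to 0.0331) and TIMP4 (-0.0537 to 0.239, with -0.0018 without EXT1-/- replicate 3). The causes were not tested. Whether the replicate numbers pair the libraries was not settled. Same-numbered libraries correlated at 0.712, 0.291, 0.241 and -0.505 in their deviations from the group means, and differently numbered ones at -0.661 to 0.594. WT replicate 4 was in the low set and EXT1-/- replicate 4 in the high set, so these correlations mix set with number and cannot decide. With the replicate block 28 members (10 higher, 18 lower) and 4934 genes were called, among them 1 catalytic ADAM and 3 hyalectan or fibrillin genes, and the EXT1 difference was -0.76.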
